A study of Mus musculus with 6 samples.

Results

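Messenger RNA of 9 genes was followed in macrophages grown from the bone marrow of mice with and without sEH, the soluble epoxide hydrolase. The genes encode proteins of the extracellular matrix (Fn1, Thbs1, Tgfbi, Vcan, Spp1, Ecm1 and Emilin2) and the urokinase arm of the plasminogen system (Plau and Plaur). They were taken by symbol from the deposited counts, in which all 9 of the 9 listed symbols were found among 19309 genes. Each symbol was carried by 1 row.

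The study asked what this enzyme, encoded by Ephx2, does in macrophages that resolve inflammation. The sEH turns fatty acid epoxides into diols. Marrow cells of mice aged 8 to 10 weeks grew for 7 days with the growth factors GM-CSF and M-CSF, both at 15 ng/mL. They were activated to the M1 state with IFN-γ at 1 ng/mL plus LPS at 10 ng/mL, and turned to the M2c state with TGF-β1 at 10 ng/mL. One group of 3 libraries came from mice without sEH (sEH-/-) and the other, also of 3, from wild-type mice. All 6 libraries shared every agent, and the M1 step lasted 24 h by the labels and 12 h by the methods, with TGF-β1 for 48 h by the labels and for 24 h or 48 h by the methods. The libraries are described as coming from separate mice, and where they do not, p-values measure only the spread between libraries, which may be technical. The sEH-/- libraries held 5818444, 5013265 and 4400197 counts in replicates 1, 2 and 3, and the wild-type libraries 4632688, 6096440 and 5448287.

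TGF-β1 binds a pair of receptor kinases that phosphorylate Smad proteins, and in many cells this pathway raises the transcription of matrix genes. The matrix proteins made by macrophages bind integrins and CD44 and form a provisional scaffold during repair. Urokinase, bound to its receptor on the cell surface, turns plasminogen into plasmin, which degrades fibrin and matrix. Since every library had received TGF-β1, induction of these genes by TGF-β1 could not be examined, and the values below describe the genotypes only.

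The genotype labels were checked first. Ephx2 reads numbered 4, 2 and 1 in sEH-/- replicates 1, 2 and 3, far below the 26, 49 and 57 of the wild-type replicates. All 8 macrophage markers were found, with Csf1r, the receptor of M-CSF, the most abundant at a mean of 2381 counts. Their summed level was 1985, 2396 and 2457 CPM in sEH-/- and 2204, 1744 and 1834 CPM in wild-type cells. Of the 8, 6 carried more than 0.4 counts per exonic base, where counts follow the library totals poorly, and Lyz2 counted between 1153 and 1173 in every library, so these sums are a weak measure of a difference. All 8 log2 fold changes, sEH-/- over wild-type, were above 0 with a median of 0.21. Higher without overlap were 2 of the 8 genes, beside 11.8% of all tested genes. None was called by edgeR, DESeq2 or limma-voom. At an unadjusted edgeR p under 0.05, 3 were higher and 0 lower, beside 11.1% and 12.2% of all tested genes. Without wild-type replicate 1, 2 were called higher, and with counts corrected for a limit of 1 count per base Cd14 was called higher. CPM are counts scaled to a common library size by edgeR's TMM method.

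Levels were put in order per kilobase of exon, since longer genes collect more counts. In wild-type macrophages the highest were Spp1 (osteopontin) at 127 ± 16.7 CPM per kb (SD, n = 3), Tgfbi at 105 ± 18.4 and Plau at 103 ± 1.02, with Spp1 above Tgfbi in all 3 libraries and Tgfbi above Plau in 1 of 3. Ecm1 followed at 72.0 ± 6.81 CPM per kb, then Thbs1 at 54.2 ± 14.4, Plaur at 51.1 ± 1.21 and Emilin2 at 37.3 ± 5.36, where Ecm1 was above Thbs1 in all 3 libraries and Thbs1 above Plaur in 1 of 3. Tgfbi and Plau, and Thbs1 and Plaur, were the wild-type neighbours whose means differed by less than the larger of their SDs. Spp1, Tgfbi, Plau and Thbs1 carried over 0.4 counts per base, where levels can be understated, so the order at the top is that of the deposited counts. Fn1 at 6.86 ± 1.13 and Vcan at 0.485 ± 0.0301 CPM per kb lay apart at the lower end. In sEH-/- macrophages Thbs1 stood at 114 ± 8.46 CPM per kb, within the spread of Tgfbi at 120.5 ± 13.5 and above Plau at 93.2 ± 10.4. Fn1 reached 22.5 ± 7.20 CPM per kb there and still ranked below Emilin2 at 45.2 ± 1.10.

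Of the 9 genes, Fn1 and Thbs1 were called higher in sEH-/- macrophages and 0 were called lower. A gene was called when edgeR's quasi-likelihood test gave a Benjamini-Hochberg adjusted p under 0.05 and a difference of more than 1.5-fold. Over all 13785 tested genes 1.51% were called higher and 1.10% lower. DESeq2 called 3 of the 9 genes higher and 0 lower, beside 1.96% and 1.47% of all tested genes, and limma-voom 2 and 0, beside 1.30% and 0.929%. An unadjusted edgeR p under 0.05 was found for 4 higher and 0 lower, beside 11.1% and 12.2% of all tested genes. All 3 sEH-/- libraries lay above all 3 wild-type libraries for 4 of the 9 genes (Fn1, Thbs1, Vcan and Emilin2), beside 11.8% of all tested genes, and below them for 0 of the 9, beside 14.5%. The median log2 fold change, sEH-/- over wild-type, was 0.20 for the 9 genes and −9e-04 for all tested genes. It was 0.21 for the macrophage markers and 0.09 for the 229 tested genes with over 0.4 counts per base, among which are 4 of the 9. The members had been chosen with earlier results of these data known, so these counts and medians are no independent measure of an excess.

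**Figure D1:**
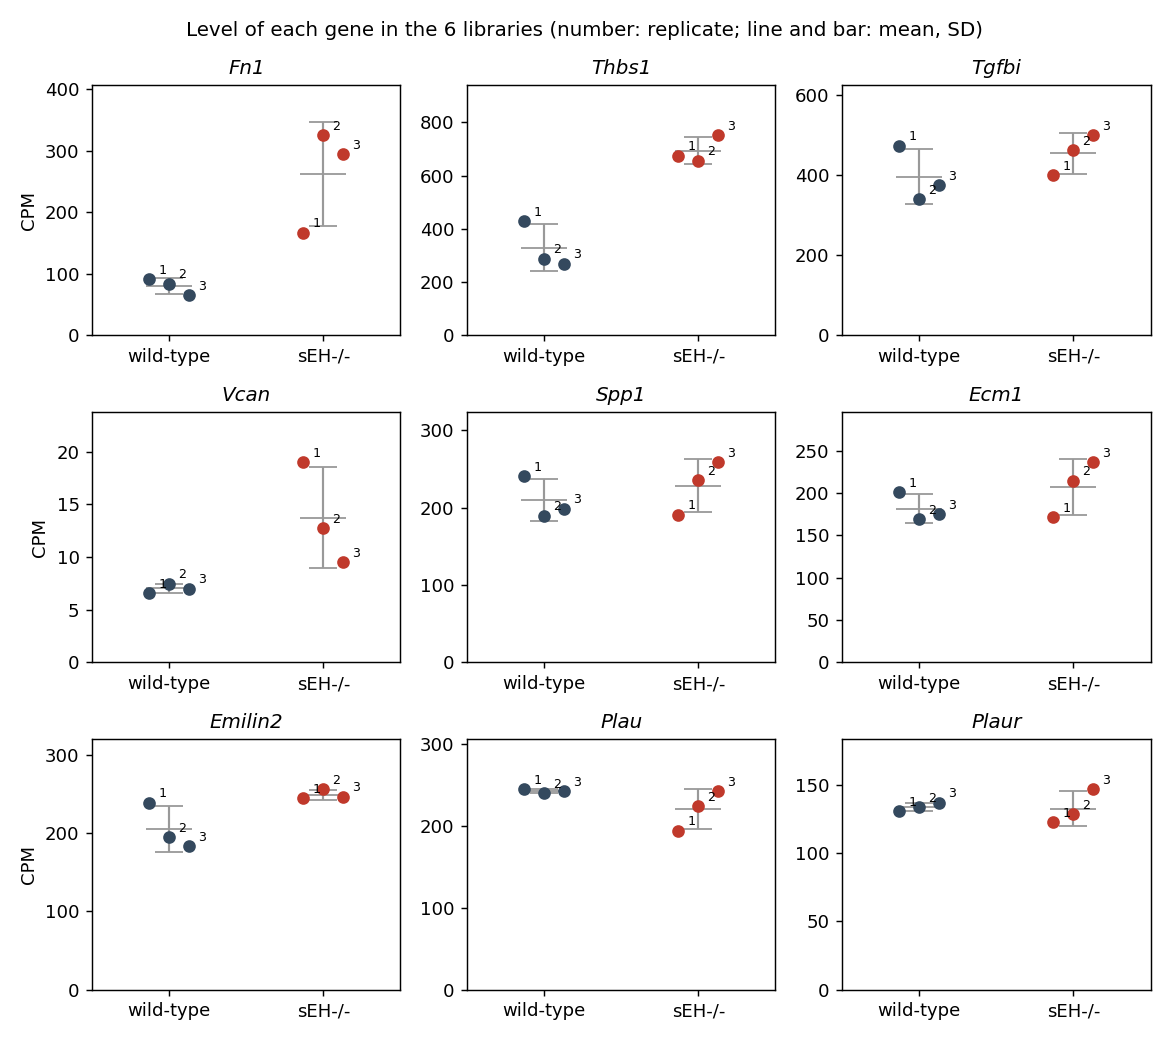
CPM of the 9 genes (vertical axes, each from 0) in the wild-type and sEH-/- libraries, with 1 point per library, its replicate number beside it, and the mean and SD of 3 libraries in grey. Fn1 lay between 65.4 and 91.0 CPM in wild-type and between 167 and 326 CPM in sEH-/- libraries, whereas the Plau and Plaur points of the genotypes overlapped.

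Fn1 encodes fibronectin, a matrix glycoprotein that integrins bind through its RGD motif. The gene (ENSMUSG00000026193) is on chromosome 1 of mm10, minus strand, from 71585520 to 71653200, and its longest annotated transcript has 46 exons. Fn1 stood at 167, 326 and 295 CPM in sEH-/- replicates 1, 2 and 3, and at 91.0, 84.1 and 65.4 CPM in the wild-type replicates. Every sEH-/- library was above every wild-type library, and sEH-/- replicate 1 was the lowest of its group. The means were 262 ± 84.1 and 80.2 ± 13.2 CPM (SD, n = 3 each). The log2 fold change was 1.71 (SE 0.22, 95% interval 1.22 to 2.20, adjusted p = 0.0087 from edgeR), which is 3.27-fold. Without wild-type replicate 3 the adjusted p was 0.084, the highest of the 14 alternatives, which began at 1.6e-05, while the log2 fold change was 1.58.

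Thbs1 encodes thrombospondin-1, a matricellular protein that binds CD36 and CD47 and can activate latent TGF-β. It is ENSMUSG00000040152, on the plus strand of chromosome 2 from 118111876 to 118127133, with 22 exons in the longest transcript. Its level was 675, 655 and 752 CPM in sEH-/- and 429, 288 and 270.0 CPM in wild-type libraries. The genotypes did not overlap, and wild-type replicate 1 was above the other wild-type libraries. Mean levels were 694 ± 51.4 and 329 ± 87.5 CPM (SD, n = 3 each). The log2 fold change was 1.08 (SE 0.16, 95% interval 0.73 to 1.43, adjusted p = 0.014 from edgeR). The adjusted p was 0.074 when wild-type replicate 2 was left out and 0.094 when replicate 3 was, in a range that began at 2.1e-04 over the 14 alternatives. The log2 fold changes were then 0.99 and 0.96.

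Vcan encodes versican, a large chondroitin sulfate proteoglycan that binds hyaluronan and that monocytes are known to express. It is ENSMUSG00000021614, on the minus strand of chromosome 13 from 89655312 to 89742509. Its sEH-/- libraries counted 111, 63 and 41 reads and its wild-type libraries 30, 46 and 39, the fewest of the 9 genes. As levels these were 19.0, 12.7 and 9.51 CPM against 6.60, 7.46 and 6.99 CPM. The sEH-/- libraries were spread widely and all lay above the wild-type libraries, which were close together. The log2 fold change of 0.98 (SE 0.26, 95% interval 0.40 to 1.56) did not pass edgeR's adjustment (adjusted p = 0.062). Vcan was called with DESeq2 (adjusted p = 0.035), with no filter on low counts (0.041) and without sEH-/- replicate 3 (0.026), and its adjusted p over the 14 alternatives reached 0.219.

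Emilin2 encodes a glycoprotein of elastic fibres and is ENSMUSG00000024053, on the minus strand of chromosome 17 from 71252172 to 71311978. It stood at 244, 256 and 247 CPM in sEH-/- and 239, 195 and 183 CPM in wild-type libraries. The genotypes did not overlap, with wild-type replicate 1 the nearest to the sEH-/- libraries. The log2 fold change was 0.28 (SE 0.10, 95% interval 0.06 to 0.50, adjusted p = 0.119 from edgeR), below the fold that was required.

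Promoters were read for the members with an entry in the RefSeq table (GRCm38.p6), which held 6 of the 9 genes with 8 starts. Fn1, Thbs1 and Plau are named only. Each entry runs from 250 bases before to 50 bases after a transcription start. Shown are those of Vcan, which had the highest log2 fold change among them but was not called by edgeR, and of Plaur, whose log2 fold change was nearest to 0. A relation between promoter letters and differences of level was not tested. Capitals mark matches on either strand to 4 motifs. The AP-1 motif was searched as TGANTCA. The letters of the GC box, which Sp1 family proteins bind, were GGGCGG. For the Smad box the letters searched were CAGAC. The TATA motif was taken as TATAAA. No match of one motif overlapped a match of another in these entries, while GC boxes of Plaur overlap each other. The Vcan promoter is the minus strand of chr13:89742463-89742762 and the Plaur promoter the plus strand of chr7:24462233-24462532.
Vcan: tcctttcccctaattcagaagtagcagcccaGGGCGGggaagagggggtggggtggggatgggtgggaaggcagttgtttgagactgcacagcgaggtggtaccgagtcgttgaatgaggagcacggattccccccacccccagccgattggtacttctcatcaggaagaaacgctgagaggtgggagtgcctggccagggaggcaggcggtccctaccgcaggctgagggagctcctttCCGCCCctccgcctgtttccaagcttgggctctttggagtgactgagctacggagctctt
Plaur: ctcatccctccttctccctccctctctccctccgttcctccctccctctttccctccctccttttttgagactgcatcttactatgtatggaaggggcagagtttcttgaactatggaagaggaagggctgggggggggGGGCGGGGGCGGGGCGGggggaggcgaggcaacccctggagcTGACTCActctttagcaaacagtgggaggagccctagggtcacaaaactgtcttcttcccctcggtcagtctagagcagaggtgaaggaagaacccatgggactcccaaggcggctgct
The Vcan promoter held 2 GC boxes, which begin 219 and 10 bases before the start, and 0 matches to the other motifs. The Plaur promoter held 3 GC boxes and 1 AP-1 match. Of the other starts, that of Ecm1 had 1 AP-1 match, and the Smad box letters stood in 6 of the 8. Over the 32851 promoters of this length, 7.80% held the AP-1 letters, 35.7% the GC box, 49.6% the Smad box and 13.6% the TATA letters. A match describes the letters of the window and is no measurement of binding.

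Spp1, Tgfbi and Ecm1 gave intervals that included 0. Spp1 encodes osteopontin, a ligand of integrins and CD44, and is ENSMUSG00000029304, on chromosome 5 from 104435118 to 104441050. Its level was 191, 236 and 258 CPM in sEH-/- and 241, 189 and 199 CPM in wild-type libraries. The genotypes overlapped, with a log2 fold change of 0.12 (SE 0.12, 95% interval −0.15 to 0.39, adjusted p = 0.594 from edgeR). Of the exonic bases of Spp1, 18.75% are shared with another gene on the same strand, and reads over several genes were not counted there.

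Tgfbi encodes a secreted adhesion protein named for its induction by TGF-β. It is ENSMUSG00000035493, on chromosome 13 from 56609523 to 56639562, at 400, 463 and 500.4 CPM in sEH-/- and 474, 340 and 375 CPM in wild-type libraries. The groups overlapped, and the log2 fold change was 0.20 (SE 0.13, 95% interval −0.09 to 0.48). Ecm1, a secreted glycoprotein of skin and other matrices (ENSMUSG00000028108, chromosome 3 from 95734147 to 95739569), ranged from 171 to 236 CPM in sEH-/- and from 169 to 201 CPM in wild-type libraries, with a log2 fold change of 0.19 (SE 0.12, 95% interval −0.07 to 0.45). The adjusted p was 0.397 for Tgfbi and 0.361 for Ecm1 from edgeR.

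The counts of these 3 genes hardly followed the library totals. Spp1 counts were 1114, 1167 and 1115 with sEH-/- and 1095, 1166 and 1108 with wild-type cells, a highest over lowest ratio of 1.07, although the totals differed by a ratio of 1.39. The same ratio of counts was 1.12 for Tgfbi and 1.16 for Ecm1. In CPM these genes were therefore highest in the smallest libraries of each genotype, sEH-/- replicate 3 and wild-type replicate 1. Duplicate reads had been removed by the authors, and the highest mean of any gene was 0.972 counts per exonic base, with Spp1 at 0.684, Tgfbi at 0.580, Plau at 0.510 and Thbs1 at 0.430. Among the 229 tested genes above 0.4 counts per base, the median count ratio of wild-type replicate 2 over replicate 1 was 1.13, against 1.32 for the totals and 1.44 for genes between 0.01 and 0.05. A difference in such genes can be understated. With counts corrected for a limit of 1 count per base, the log2 fold change of Thbs1 was 1.42.

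**Figure D2:**
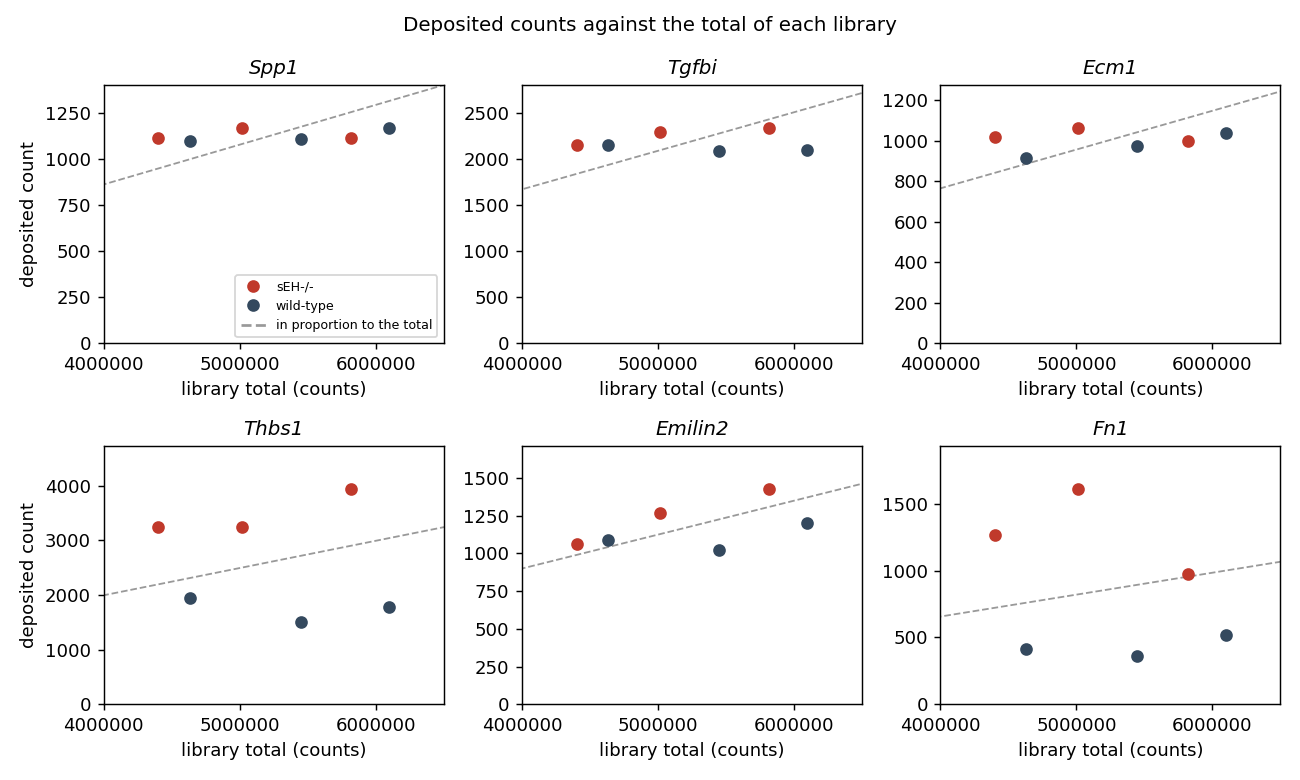
Deposited counts of 6 genes (vertical axes, from 0) against library totals (in counts), with sEH-/- libraries in red, wild-type libraries in dark blue and a dashed line for counts in proportion to the total. Spp1 stays between 1095 and 1167 counts while the Fn1 and Thbs1 points separate by genotype.

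Plau and Plaur, the urokinase pair, did not separate the genotypes. Plau encodes urokinase, the protease that activates plasminogen, and is ENSMUSG00000021822, on chromosome 14 from 20836660 to 20843385. It stood at 194, 224 and 243 CPM in sEH-/- and 245, 240.3 and 243 CPM in wild-type libraries. The wild-type libraries were nearly level, and sEH-/- replicate 1 was the lowest of the 6. The log2 fold change was −0.14 (SE 0.09, 95% interval −0.33 to 0.05, adjusted p = 0.370 from edgeR). Plaur encodes the urokinase receptor and is ENSMUSG00000046223, on chromosome 7 from 24462484 to 24475968. It ranged from 123 to 147 CPM in sEH-/- and from 131 to 137 CPM in wild-type libraries, a log2 fold change of −0.02 (SE 0.08, 95% interval −0.19 to 0.16, adjusted p = 0.929 from edgeR). The direction of Plaur turned when single libraries were left out, and an effect of 1.5-fold lies outside both intervals from the deposited counts. Plau carried 0.510 counts per base, and with counts corrected for a limit of 1 count per base its log2 fold change was −0.26 (adjusted p = 0.123 from edgeR, the lowest of the 14 alternatives, which reached 0.670).

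Exact two-sided permutation tests of log2 CPM over the 20 arrangements of the 6 libraries gave p = 0.1 for Fn1, Thbs1, Vcan and Emilin2, the smallest value that 3 against 3 allows. For the other 5 members the exact permutation p lay between 0.3 and 0.9.

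**Figure D3:**
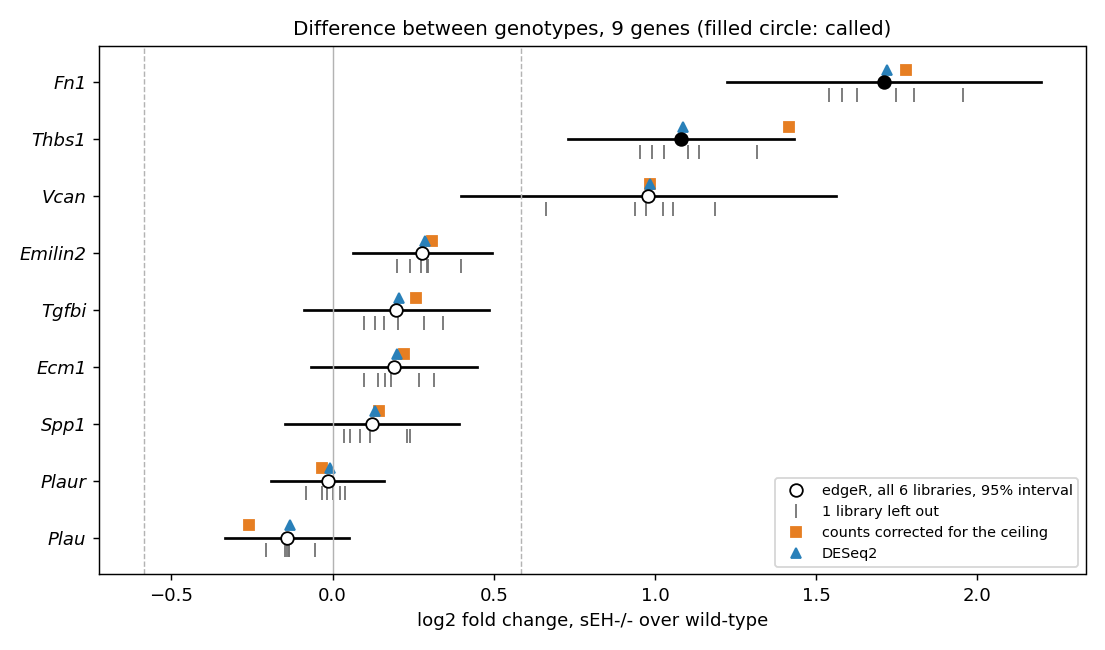
Log2 fold change, sEH-/- over wild-type (horizontal axis), of the 9 genes from edgeR with 95% intervals (filled circles for called genes), without 1 library at a time (grey ticks), with DESeq2 (triangles) and with counts corrected for the limit per base (squares), where dashed lines mark 1.5-fold. Fn1 at 1.71 and Thbs1 at 1.08 are the called genes, and the interval of Vcan reaches from 0.40 to 1.56.

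The genes whose pattern over the 6 libraries came nearest to that of a called member were sought among 10276 others with a mean of at least 50 counts, by the root mean square difference of centred log2 CPM. Nearest to Fn1 were Rgs16, a regulator of G protein signalling (difference 0.227), and Rph3a (0.255). Nearest to Thbs1 were Rasgrp2, a guanine nucleotide exchange factor of Rap1 (0.139), and Ang, an angiogenin ribonuclease (0.185).

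The wider plasminogen system was represented by 13 genes with a row, of which 11 were tested, 1 was called higher and 0 lower. At an unadjusted p under 0.05 from edgeR there was 1 in each direction, beside 11.1% higher and 12.2% lower of all tested genes. DESeq2 called 1 higher and 0 lower, and limma-voom 0. The called gene was Serpinb2, which encodes plasminogen activator inhibitor 2. It stood at 14.5, 9.08 and 3.01 CPM in sEH-/- and 1.10, 0.974 and 1.79 CPM in wild-type libraries, without overlap and with sEH-/- replicate 1 far above the others. This gave a log2 fold change of 2.79 (SE 0.55), with an adjusted p of 0.029 from edgeR. The call was lost with limma-voom and when wild-type replicates 2 or 3 or sEH-/- replicate 2 were left out, with adjusted p-values up to 0.151. Abundant genes of the list were Lrp1, an endocytic receptor that clears urokinase complexes (log2 fold change 0.13), and Anxa2 (0.07), which binds plasminogen. The median log2 fold change of the 11 genes was 0.07.

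Receptors for the 9 proteins were measured by 21 genes, of which 18 were tested. Tlr2, a receptor for bacterial lipoproteins to which versican binds, was called higher, and Itgb3, the β3 chain of the vitronectin receptor, was called lower. Tlr2 stood at 206, 261 and 156 CPM in sEH-/- and 94.5, 54.8 and 61.1 CPM in wild-type libraries, and Itgb3 at 45.0, 26.0 and 49.2 against 73.7, 155 and 100.4 CPM. In both genes the genotypes did not overlap, and wild-type replicate 2 had the highest Itgb3 level. The log2 fold changes were 1.59 for Tlr2 (SE 0.21, adjusted p = 0.011 from edgeR) and −1.47 for Itgb3 (SE 0.27, adjusted p = 0.025). Without wild-type replicate 3 neither was called, and Itgb3 was also not called without wild-type replicate 2 or sEH-/- replicate 2, with adjusted p-values up to 0.093 for Tlr2 and 0.117 for Itgb3. Itga4, an integrin α chain that binds fibronectin, was called higher without wild-type replicate 1 only. The abundant genes Lrp1, Itgb2 (0.12) and Cd44 (0.14), a receptor of osteopontin and hyaluronan, had small log2 fold changes, and the median of the list was 0.13.

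Other matrix proteins gave 0 calls among 38 tested of 52 genes with a row. At an unadjusted edgeR p under 0.05 there were 2 higher and 6 lower, beside 11.1% and 12.2% of all tested genes. DESeq2 and limma-voom called 0, and the median log2 fold change was −0.14. Without wild-type replicate 1 edgeR called 7 genes, all lower in sEH-/- cells. These included the 2 stromal cell markers that were called lower under the same omission. The summed level of stromal cell markers was 15.8, 88.4 and 49.8 CPM in wild-type replicates 1, 2 and 3, and 32.5, 37.1 and 23.7 CPM in sEH-/- libraries. The part of stromal genes in these calls was not tested. Without sEH-/- replicate 1 edgeR called 2 genes, both lower, and without sEH-/- replicate 3 it called 1, which was higher. The most abundant genes of this list were Mfge8 (log2 fold change 0.11), a bridge between apoptotic cells and integrins, Lamc1 (−0.12), a laminin chain, and Ltbp3 (0.14), which binds latent TGF-β. Matrix-modifying enzymes gave 0 calls among 19 tested of 30 genes, with a median of −0.10. At an unadjusted edgeR p under 0.05, 2 were higher and 3 lower, beside 11.1% and 12.2% of all tested genes. DESeq2 gave 1 call (lower) and limma-voom 0. Leaving out sEH-/- replicate 1, or using no filter on low counts, gave 1 call by edgeR, also lower. Here the abundant genes were Tgm2 (0.12), a transglutaminase that crosslinks fibronectin, P4ha1 (0.06), which hydroxylates proline in collagen, and Colgalt1 (0.02).

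Of the genes of TGF-β feedback and Smad targets, 29 of 33 with a row were tested, 1 was called higher and 0 lower. DESeq2 gave 1 and 0, limma-voom 0 and 0, and an unadjusted edgeR p under 0.05 was found for 10 higher and 4 lower, beside the 11.1% and 12.2% of all tested genes. Zeb1, a zinc finger repressor, was the called gene, at 29.1, 25.2 and 16.0 CPM in sEH-/- and 12.5, 10.5 and 12.6 CPM in wild-type libraries. All 3 sEH-/- values were above the wild-type values, with a log2 fold change of 0.997 (SE 0.22) and an adjusted p of 0.038 from edgeR. The call was lost under 6 of the 14 alternatives, among them each of wild-type replicates 2 and 3 and sEH-/- replicates 1 and 2 left out, with adjusted p-values up to 0.189, and the list had 2 calls, both higher, without sEH-/- replicate 3. Zeb2 (log2 fold change 0.12) and the Smad corepressor genes Skil (0.20) and Ski (0.23) were the most abundant and not called. The list's median was 0.12, and of the 29 genes, 8 were higher and 1 was lower in all 3 sEH-/- libraries than in every wild-type library, beside 11.8% and 14.5% of all tested genes.

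**Figure D4:**
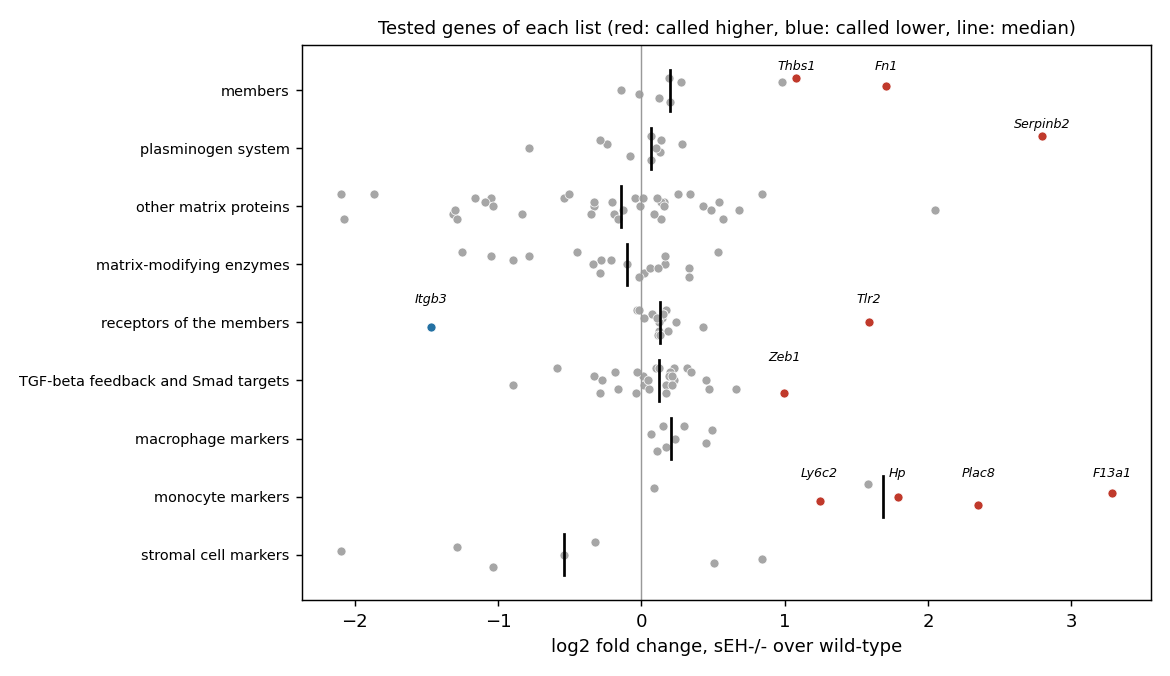
Log2 fold change, sEH-/- over wild-type (horizontal axis), of the tested genes of 9 lists, with called genes in red (higher) or blue (lower) and named, other genes in grey, and a black line at each median; the vertical offset within a list only separates points. Calls were 2 of 9 among the members and 0 of 38 among other matrix proteins, and 4 of 6 tested monocyte markers were called higher. Over all tested genes 1.51% were called higher and 1.10% lower.

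Some markers of monocytes also differed between the genotypes. Of 7 markers 6 were tested, and edgeR called 4 higher in sEH-/- libraries (Ly6c2, Hp, Plac8 and F13a1) and 0 lower. Over all tested genes 1.51% were called higher and 1.10% lower. At an unadjusted edgeR p under 0.05 there were 5 higher and 0 lower, beside 11.1% and 12.2% of all tested genes. DESeq2 called 4 and 0, and limma-voom 3 and 0. This list too was chosen with earlier results of these data known. The edgeR count was 0 when wild-type replicate 3 was left out and 2 when wild-type replicate 2 was. F13a1 lost its call under 5 of the 14 alternatives, limma-voom among them, with adjusted p-values up to 0.209, Plac8 under 2, and Ly6c2 and Hp under 1 each. The summed level of the 7 genes was 286, 328 and 421 CPM in sEH-/- and 274, 214 and 237 CPM in wild-type libraries. Chil3 was the most abundant, at a log2 fold change of 0.09, and without it the sums were 105, 141 and 149 CPM against 45.5, 33.4 and 45.4 CPM. Ccr2, which marks circulating monocytes, had at most 8 counts in any library and was called higher only without wild-type replicate 1. In bulk RNA a different number of cells of a type and a different amount of RNA per cell cannot be told apart, and the part of monocyte genes in the differences of Fn1, Thbs1 and Vcan was not tested.

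Markers of stromal cells, which make much fibronectin, gave no call. Of 9 with a row 7 were tested and 0 called by edgeR, DESeq2 or limma-voom. At an unadjusted edgeR p under 0.05, 0 were higher and 2 lower, beside 11.1% and 12.2% of all tested genes. Their summed level was 32.5, 37.1 and 23.7 CPM in sEH-/- and 15.8, 88.4 and 49.8 CPM in wild-type libraries, so that wild-type replicate 2 was the highest and wild-type replicate 1 the lowest. Acta2 was the most abundant, and Pdgfra and Cxcl12 had at most 13 counts in any library. Without wild-type replicate 1, 2 of these genes were called lower.

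Platelets carry thrombospondin-1. Of 5 platelet and megakaryocyte markers with a row, all tested, Gp6 was called higher by edgeR (24, 11 and 12 counts against 5, 4 and 5), a call that was lost under 7 of the 14 alternatives. These included DESeq2, limma-voom and the omission of wild-type replicates 2 or 3 or sEH-/- replicates 1 or 2. The summed level was 83.5, 77.1 and 77.5 CPM in sEH-/- and 75.4, 69.8 and 70.1 CPM in wild-type libraries, with Pf4, which macrophages also express, the most abundant, and the genotypes did not overlap. Without Pf4 the sums were 20.02, 12.7 and 19.3 CPM against 15.4, 18.3 and 16.7 CPM, which overlapped. Itga2b counted 13, 9 and 10 reads with sEH-/- and 16, 38 and 21 with wild-type cells. The part of these genes in the difference of Thbs1 was not tested.

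**Figure D5:**
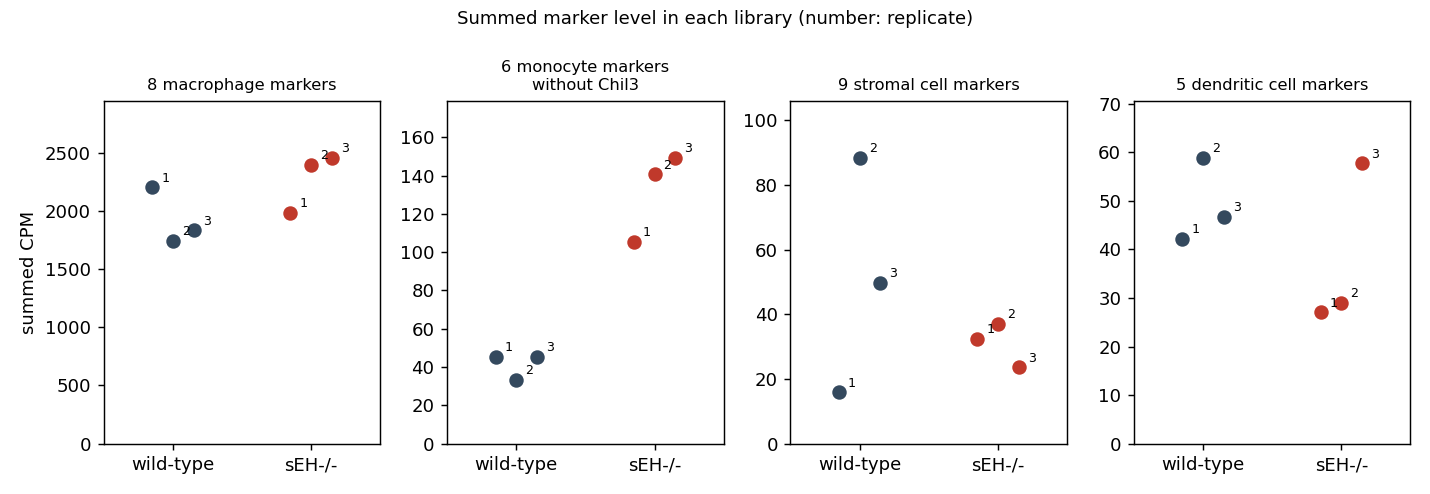
Summed CPM (vertical axes, from 0) of macrophage, monocyte (without Chil3), stromal cell and dendritic cell markers in each library, with the replicate number beside each point. The monocyte sums lie between 105 and 149 CPM in sEH-/- and between 33.4 and 45.5 CPM in wild-type libraries, and the stromal and dendritic cell sums of the genotypes overlap. Of the 8 macrophage markers, 6 carried over 0.4 counts per base.

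Of the remaining markers, neutrophil genes had 7 rows, of which S100a8, the most abundant, was tested and not called (log2 fold change 0.54, adjusted p = 0.057 from edgeR). Camp had at most 10 counts and Elane at most 3 in any library. The summed neutrophil level was 28.4, 32.1 and 29.7 CPM in sEH-/- and 17.6, 19.8 and 21.1 CPM in wild-type libraries, without overlap. Most of each sum was S100a8, and without it the sums were 4.45, 2.42 and 2.55 CPM against 0.440, 1.62 and 1.08 CPM. The part of neutrophil genes in the differences of the members was not tested. S100a8 was called without sEH-/- replicate 1, and its adjusted p ranged from 0.036 to 0.240 over the 14 alternatives. Dendritic cell markers had 5 rows with 3 tested and 0 called by edgeR, DESeq2 or limma-voom (0 higher and 1 lower at an unadjusted p under 0.05, 2 called lower without sEH-/- replicate 3), Clec9a the most abundant and Cd209a at 0 in all 6 libraries. Endothelial markers had 3 rows with 2 tested and 0 called by edgeR, DESeq2 or limma-voom, also at an unadjusted p under 0.05, and Kdr was the most abundant. Lymphocyte and erythroid markers were not analysed here.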

How the data were processed

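The authors deposited raw counts per gene, without normalization, for the 6 libraries. By the methods and, for the versions, the labels, they trimmed reads (Trimmomatic 0.39), aligned them to mm10 (STAR 2.7.7a), removed duplicates (Picard 2.21.7) and reads that were ribosomal, mitochondrial or multi-mapping, and counted exonic reads by strand (featureCounts 1.6.5). Labels and methods name different library kits, RNA input and hours of treatment, and the methods give other versions of STAR, Picard and featureCounts.

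Counts were tested in R 4.3.3 with edgeR 4.0.16 (TMM, glmQLFit and glmQLFTest, genotype alone, two-sided) for genes with a mean above 5 counts, which kept 13785 genes. TMM factors lay between 0.982 and 1.03 and the common biological coefficient of variation was 0.0866. Standard errors were the size of a log2 fold change over the root of its F statistic. Log2 CPM for permutation and pattern comparisons had a prior count of 2. Exonic lengths and positions came from GENCODE M21 (GRCm38). Code was tested on simulated data. The alternatives were DESeq2 1.42.0, limma-voom (limma 3.58.1), RLE factors, library totals, no filter, filterByExpr, counts corrected for a limit of 1 count per exonic base, a replicate block, each library left out, and no fold threshold.

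The members and lists were chosen with earlier results of these data known. Genes named are the members, Ephx2, up to 5 called genes with the largest differences and the 3 most abundant genes per list, the most abundant and the scarce defining genes of marker lists, and the 2 genes nearest to each called member. Itga2b, Lyz2, Cd14 and Itga4, and Camp and Elane as scarce examples, were named after their values were seen. A gene in several lists counts in each. Some genes that this rule names are not reported here.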

Additional observations from a re-analysis of the deposited data

How the results depend on the processing

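Fn1, Thbs1, Tgfbi, Spp1, Ecm1, Emilin2, Vcan and Plau kept the direction of their difference under all 14 alternatives. Vcan passed the threshold with DESeq2 (log2 fold change 0.98) and with no filter (0.98). With each library left out in turn, the log2 fold change ranged from 1.54 to 1.96 for Fn1, from 0.96 to 1.32 for Thbs1, from 0.66 to 1.19 for Vcan and from −0.08 to 0.04 for Plaur, which was 0.002 without wild-type replicate 3, 0.039 without sEH-/- replicate 1 and 0.02 without sEH-/- replicate 2. The calls of Fn1 and Thbs1 were lost as given beside them, so that between 0 and 3 members were called higher, with 1 and 0 when wild-type replicates 2 and 3 were left out. No member was called lower under any alternative, no fold threshold included.

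Over all tested genes 360 were called, between 6 and 625 with a library left out (25 and 6 when wild-type replicates 2 and 3 were left out, 625 and 570 for wild-type replicate 1 and sEH-/- replicate 3, 96 for sEH-/- replicate 2) and 553 with no fold threshold. All fits with a library left out had the same number of libraries, yet the count rose in some and fell in others. It also rose without sEH-/- replicate 1, to 518, and the cause of these moves was not tested. With the replicate block 234 genes were called and the same 2 members. Same-numbered libraries correlated at −0.082, −0.26 and −0.037 in their deviations from the group means, and differently numbered ones between −0.076 and 0.162. With 3 libraries per group these values cannot show whether libraries shared a litter or a preparation. Vcan has few counts. Spp1, Tgfbi, Plau and Thbs1 lie above 0.4 counts per base, where differences can be understated, and with counts corrected for this the log2 fold change of Plau moved from −0.14 to −0.26.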
